A study of Mus musculus with 48 samples.

Results

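Expression of 9 genes that define striatal projection neurons and their dopamine input was examined in punches of the amygdala (AMG). The genes were *Ppp1r1b*, *Drd1*, *Drd2*, *Penk*, *Adora2a*, *Pde10a*, *Rgs9*, *Tac1* and *Gpr6*, taken by symbol and matched to 9 of the 52636 gene IDs in the table of expression levels. Levels were given as TPM, a share of transcripts in which the reads of each gene are divided by its length and scaled to a common sum, so that levels can be compared between genes. All mice were female, 8 to 11 weeks old and of the line C57BL/6NTac-Brd1 (allele tm1.2Arte), either wildtype (WT) or heterozygous for a targeted deletion of *Brd1* (Brd1+/-) made with loxP sites around exons 3 to 5. Each genotype was given saline (vehicle), the tricyclic drug imipramine (IMN) at 10 mg/kg or the serotonin reuptake inhibitor fluoxetine (FLX) at 5 mg/kg. Each of the 6 groups held 8 mice with 1 library each, 48 in all. Every group had been through open field, tail suspension and forced swim tests before brains were collected, and the tissue was a punch of 1 mm diameter from the right AMG in a coronal section 1 mm thick, so that a library holds whatever the needle took.

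Striatal projection neurons are GABAergic cells that divide into a direct and an indirect pathway. Direct pathway cells carry the D1 receptor *Drd1*, which raises cAMP, and *Tac1*, the precursor of substance P. Indirect pathway cells carry the D2 receptor *Drd2*, which lowers cAMP, the enkephalin precursor *Penk*, the adenosine receptor *Adora2a* and the orphan receptor *Gpr6*, both of which raise cAMP. Cells of both pathways share *Ppp1r1b*, the protein phosphatase inhibitor DARPP-32, *Pde10a*, a phosphodiesterase that breaks down cyclic nucleotides, and *Rgs9*, a regulator that shortens G protein signals. The caudal striatum borders the AMG, and GABAergic cells of the central AMG also express several of these genes.

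Promoter sequence was looked up because the genes varied together across libraries and most of them act on cAMP, to which the cAMP response element TGACGTCA responds. RefSeq promoters on GRCm38.p6, running from 250 bases before to 50 bases after a start, were at hand for 6 of the 9 genes in 8 entries, and *Ppp1r1b*, *Penk* and *Adora2a* had no entry. Shown here, 5′ to 3′ on the strand of the gene, are the bases upstream of the outermost annotated start for the receptors that mark each pathway and for *Tac1*. They lie at chr13:54055706-54055908 (minus strand), chr6:7554811-7554878 (plus strand), chr9:49340153-49340402 (plus strand) and chr10:41072291-41072540 (minus strand). Capitals mark TGACGTCA or the shorter TGACG and CGTCA, both of which lie within it and each of which is the other's reverse complement.
Drd1: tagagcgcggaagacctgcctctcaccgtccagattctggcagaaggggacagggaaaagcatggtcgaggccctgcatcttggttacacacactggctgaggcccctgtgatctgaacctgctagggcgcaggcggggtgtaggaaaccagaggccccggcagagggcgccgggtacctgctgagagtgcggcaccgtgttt
Tac1: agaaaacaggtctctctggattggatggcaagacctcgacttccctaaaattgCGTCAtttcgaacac
Drd2: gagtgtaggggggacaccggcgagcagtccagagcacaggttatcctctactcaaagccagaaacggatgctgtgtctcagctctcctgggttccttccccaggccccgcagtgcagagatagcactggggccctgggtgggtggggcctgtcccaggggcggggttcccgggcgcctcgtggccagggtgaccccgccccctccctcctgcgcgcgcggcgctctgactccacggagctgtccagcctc
Gpr6: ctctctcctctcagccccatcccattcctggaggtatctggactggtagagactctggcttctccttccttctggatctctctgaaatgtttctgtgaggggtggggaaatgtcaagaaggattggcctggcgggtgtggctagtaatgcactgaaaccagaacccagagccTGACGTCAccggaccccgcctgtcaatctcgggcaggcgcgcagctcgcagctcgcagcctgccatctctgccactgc
The full element was in the promoter of *Gpr6* and in 1.79% of the 32851 promoters of the table. *Tac1* held 1 shorter site, a class found in 20.8% of all promoters, and the entries of *Drd1*, *Drd2*, *Pde10a* and *Rgs9* held neither. Such matches are a description of these windows alone.

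*Brd1*, the targeted gene, had group means of 32.9 to 36.9 TPM in the WT groups and of 23.4 to 26.0 TPM in the Brd1+/- groups, and over all treatments its log2 difference was −0.54 (limma adjusted *p* = 8.90e-07). A library held 23420 to 27252 genes above 0, and no libraries were identical. Markers of the AMG were present in every library. *Prkcd*, a marker of the central AMG, ranged from 8.40 to 164 TPM, and *Slc17a7*, the vesicular glutamate transporter of basolateral AMG and cortical neurons, from 1.87 to 1346 TPM. Beside the 9 genes, 18 other projection neuron genes, such as *Adcy5* and *Rasd2*, had a summed level of 973 to 13774 TPM. The largest of them by mean was *Hpca*, at 702 TPM, with 189 TPM in its lowest library. Such a sum does not show which cells the 9 genes came from, and its correlation with them is given below.

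All 9 genes were at 0.1 TPM or more in every library, and their levels differed between libraries far more than between groups. Summed, they took 198 TPM in the lowest library and 10774 TPM in the highest, or 0.0198% and 1.08% of all TPM. *Adora2a* had the widest range, from 0.5005 to 547 TPM, which is 1092-fold. The range was 638-fold for *Drd2*, 403-fold for *Gpr6*, 168-fold for *Ppp1r1b*, 120-fold for *Rgs9*, 119-fold for *Penk*, 103-fold for *Drd1*, 47.8-fold for *Pde10a* and 24.9-fold for *Tac1*. In these bulk samples, fewer cells of a type and less RNA per cell cannot be told apart. The standard deviation within groups on the log2(TPM + 0.1) scale was between 1.26 for *Tac1* and 3.12 for *Adora2a*, against a median of 0.55 over the 27944 genes tested over all treatments. *Adora2a* thereby stood at percentile 99.8 of those genes, *Gpr6* and *Drd2* at 98.8, and *Tac1* at 85.4. Group membership took up between 0.73% (*Gpr6*) and 8.23% (*Tac1*) of the variance, against a median of 11.2% over the same genes.

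**Figure D1:**
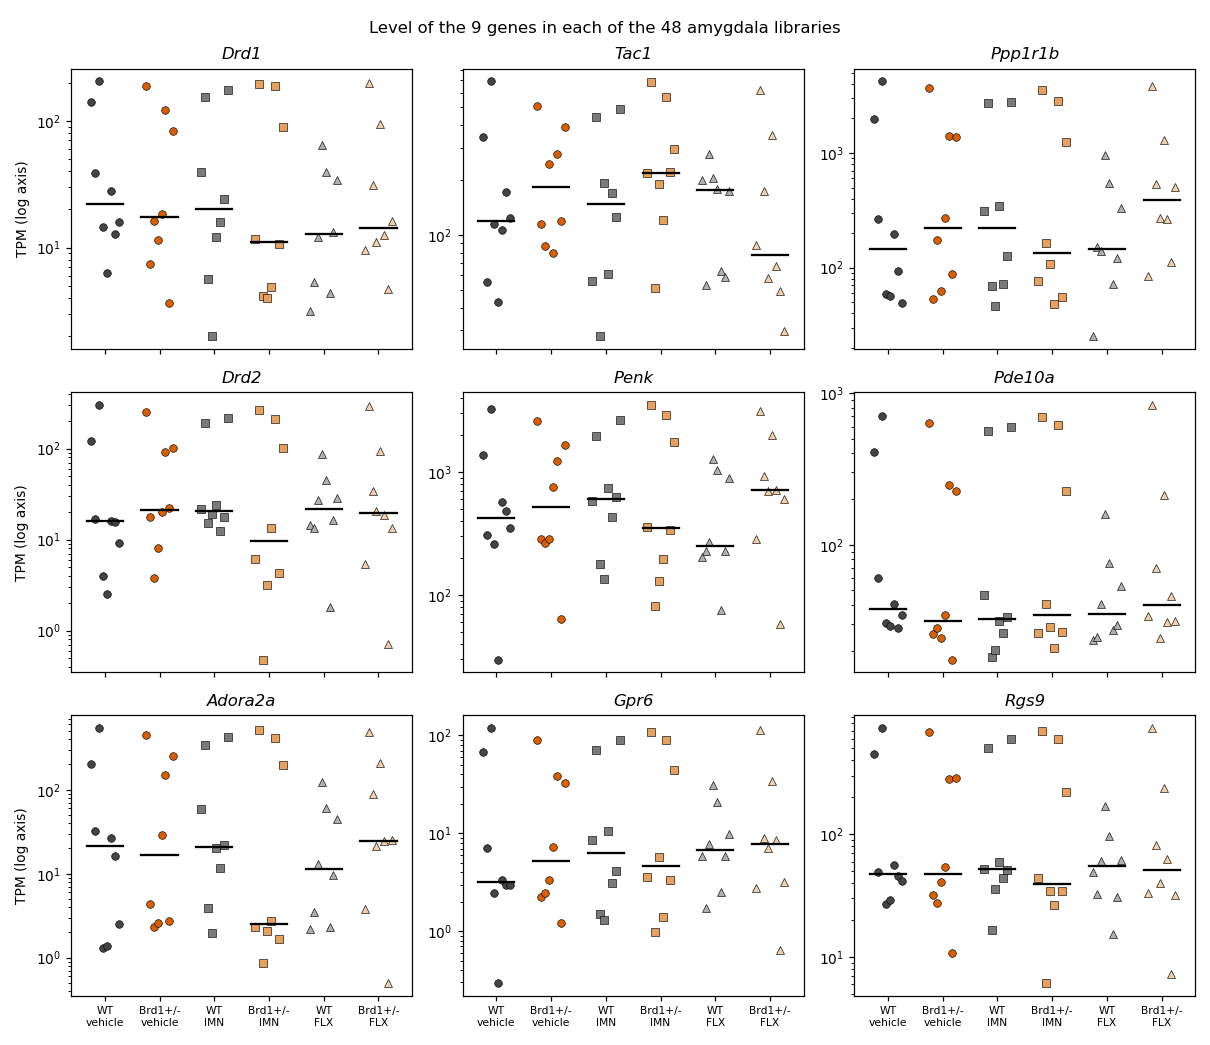
Each point is 1 library, placed by its TPM on a log axis for each of the 9 genes, with the 8 libraries of each group in replicate order and a bar at the group median. High and low libraries occur in all 6 groups, and the highest WT FLX library stays below the highest library of every other group in all 9 panels.

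*Drd1* (ENSMUSG00000021478, GRCm38 chromosome 13, 54051183 to 54055705, minus strand) is the receptor through which dopamine excites direct pathway cells. The lowest, median and highest TPM of *Drd1* were 6.30, 22.1 and 205 with vehicle in WT and 3.69, 17.4 and 187 in Brd1+/- mice. With IMN they were 1.99, 20.1 and 176 in WT and 4.00, 11.1 and 196 in Brd1+/- mice, and with FLX 3.17, 12.7 and 63.9 in WT and 4.76, 14.3 and 197 in Brd1+/- mice. Every group thus held libraries near or below the median of all libraries (16.0 TPM) and libraries several times above it, and all groups overlapped. *Tac1* (ENSMUSG00000061762, chromosome 6, 7554879 to 7565834, plus strand), the substance P precursor, varied least of the 9. Its lowest, median and highest TPM were 42.7, 119 and 692 with vehicle in WT and 79.8, 182 and 509 in Brd1+/- mice. With IMN they were 27.8, 147 and 486 in WT and 51.2, 219 and 685 in Brd1+/- mice, and with FLX 53.5, 176 and 277 in WT and 29.8, 77.7 and 621 in Brd1+/- mice. The ranges of all groups overlapped, and Brd1+/- FLX mice had the lowest median.

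*Drd2* (ENSMUSG00000032259, chromosome 9, 49340627 to 49408177, plus strand) is the inhibitory receptor of indirect pathway cells and is also made by dopamine neurons. The lowest, median and highest TPM of *Drd2* were 2.50, 15.8 and 305 with vehicle in WT and 3.83, 21.3 and 249.9 in Brd1+/- mice. With IMN they were 12.3, 20.5 and 216 in WT and 0.478, 9.75 and 265 in Brd1+/- mice, and with FLX 1.83, 21.9 and 86.6 in WT and 0.703, 19.4 and 294 in Brd1+/- mice. The lowest library of all, at 0.478 TPM, and a library at 265 TPM were both Brd1+/- IMN mice. *Adora2a* (ENSMUSG00000020178, chromosome 10, 75316877 to 75334784, plus strand), an adenosine receptor, is close to restricted to indirect pathway cells in the forebrain. Its lowest, median and highest levels were 1.29, 21.5 and 547 with vehicle in WT and 2.33, 16.8 and 452 in Brd1+/- mice. With IMN they were 1.99, 21.1 and 426 in WT and 0.871, 2.54 and 510.4 in Brd1+/- mice, and with FLX 2.18, 11.4 and 124.5 in WT and 0.5005, 24.8 and 484 in Brd1+/- mice. The median of Brd1+/- IMN mice was the lowest of the 6, while 3 of their 8 libraries lay above the median of all 48. *Penk* (ENSMUSG00000045573, chromosome 4, 4133531 to 4138819, minus strand) encodes the enkephalin precursor. In TPM, its lowest, median and highest levels were 29.7, 418.6 and 3245 with vehicle in WT and 63.6, 519 and 2615 in Brd1+/- mice. With IMN they were 134, 604 and 2647 in WT and 81.5, 347 and 3536 in Brd1+/- mice, and with FLX 74.8, 249 and 1285 in WT and 57.9, 708 and 3135 in Brd1+/- mice. It was the most abundant of the 9 by mean, at 896 TPM over all libraries.

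*Gpr6* (ENSMUSG00000046922, chromosome 10, 41069977 to 41072285, minus strand), an orphan receptor of indirect pathway cells and the gene with the full cAMP element shown above, was the least abundant, with a mean of 22.9 TPM. Its group medians ran from 3.15 TPM in WT vehicle mice to 7.79 TPM in Brd1+/- FLX mice, and its libraries from 0.297 to 120 TPM. *Ppp1r1b* (ENSMUSG00000061718, chromosome 11, 98348404 to 98357796, plus strand) encodes DARPP-32, which integrates dopamine signals in both pathways. For this gene the lowest, median and highest TPM were 49.0, 145.1 and 4218 with vehicle in WT and 53.1, 222 and 3655 in Brd1+/- mice. With IMN they were 46.0, 219.7 and 2797 in WT and 48.4, 134.7 and 3569 in Brd1+/- mice, and with FLX 25.1, 144.98 and 966 in WT and 85.1, 387 and 3834 in Brd1+/- mice. The highest WT FLX library, at 966 TPM, lay below the highest library of each other group, which were at 2797 TPM or more. *Pde10a* (ENSMUSG00000023868, chromosome 17, 8525372 to 8986648, plus strand) had group medians between 31.5 and 40.0 TPM with libraries from 17.5 to 837 TPM. *Rgs9* (ENSMUSG00000020599, chromosome 11, 109225355 to 109298129, minus strand) had group medians between 39.4 and 55.0 TPM with libraries from 6.15 to 737 TPM.

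Means of TPM follow the few highest libraries, so groups were ordered by geometric means. WT FLX mice had the lowest geometric mean for 6 of the 9 genes, including *Drd1* at 13.5 TPM and *Ppp1r1b* at 173 TPM. The highest geometric mean was in WT vehicle mice for *Drd1* (29.6 TPM) and in Brd1+/- FLX mice for *Ppp1r1b* (418 TPM). Between the highest and the lowest group the fold was 1.51 for *Gpr6* and at most 2.41, for *Ppp1r1b*. For each of the 9 genes that fold was smaller than 1 SD within groups, which equals 2.39-fold for *Tac1* and 8.67-fold for *Adora2a*, so no neighbours in the order of groups differed beyond their spread.

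The genotypes were compared to ask whether reduced *Brd1* expression alters these genes. With vehicle, limma called 0 of the 9 genes at an adjusted *p* of 0.05, where 0.708% of all 24279 genes tested were called, and 0 of 9 had an unadjusted *p* under 0.05 (8.52% of all genes). The log2 differences between Brd1+/- and WT mice ran from −0.21 (*Drd1*, 95% confidence interval −2.05 to 1.62) to 0.66 (*Drd2*, −1.45 to 2.77), and 6 of 9 were above 0. With IMN, 0 of 9 were called (0.017% of all genes), again with 0 at an unadjusted *p* under 0.05 (3.58%), and the differences ran from −1.06 (*Adora2a*, interval −4.36 to 2.24) to 0.78 (*Tac1*, −0.51 to 2.08). With FLX, where 1.54% of all genes were called, 0 of 9 were called and 0 had an unadjusted *p* under 0.05 (16.6% of all genes). There *Ppp1r1b* was 1.27 higher on the log2 scale in Brd1+/- mice (interval −0.41 to 2.95, limma unadjusted *p* = 0.129, adjusted *p* = 0.454), *Tac1* had a difference of −0.23 (interval −1.45 to 0.98), and 8 of 9 were above 0. For all 9 genes the genotypes overlapped under each treatment.

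Over all treatments, with treatment as a term and 24 libraries of each genotype, 0 of 9 genes were called (0.0215% of all genes), with 0 at an unadjusted *p* under 0.05 (8.55%). The differences ran from −0.13 for *Drd2* (interval −1.40 to 1.15) to 0.62 for *Ppp1r1b* (−0.61 to 1.85), where *Brd1* had −0.54. Changes of up to 1.85 on the log2 scale lay within these intervals, the highest bound of which belonged to *Ppp1r1b*.

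Each drug was compared with vehicle in each genotype. These comparisons share the vehicle libraries of a genotype and are given side by side. Every vehicle library had a lower sample code in its label than every drug library. Drug against vehicle therefore could not be separated from sample code, and the part of sample code in these differences was not tested. In the drug responses compared between genotypes below, a shift with sample code that both genotypes share cancels. A shift that differs between genotypes could not be separated there and was not tested. IMN in WT mice gave 0 called of 9 (0% of all genes, limma) with 0 at an unadjusted *p* under 0.05 (4.58%), and log2 differences from −0.42 (*Drd1*, interval −2.34 to 1.51) to 0.81 (*Drd2*, −1.15 to 2.77). In Brd1+/- mice IMN gave 0 called of 9 (0.776% of all genes) and 0 at an unadjusted *p* under 0.05 (9.3%), from −0.91 (*Drd2*, interval −3.49 to 1.68) to 0.29 (*Tac1*, −0.79 to 1.37). FLX in WT mice gave 0 called of 9 (0.335% of all genes) and 0 at an unadjusted *p* under 0.05 (16.8%). The lowest difference was −1.13 for *Drd1* (interval −2.74 to 0.49, limma unadjusted *p* = 0.158), the highest was 0.27 for *Gpr6* (−1.79 to 2.34), and 7 of 9 were below 0. In Brd1+/- mice FLX gave 0 called of 9 (0.731% of all genes) and 0 at an unadjusted *p* under 0.05 (6.94%), from −0.75 (*Tac1*, interval −2.004 to 0.49) to 0.41 (*Ppp1r1b*, −1.61 to 2.43). Vehicle and drug libraries overlapped for every one of the 9 genes.

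FLX was also set against IMN. In WT mice all 9 differences were below 0, from −1.09 (*Adora2a*, interval −3.53 to 1.34) to −0.03 (*Tac1*, −1.22 to 1.16), with 0 of 9 called (0% of all genes, limma) and 0 at an unadjusted *p* under 0.05 (4.78%). In Brd1+/- mice they ran from −1.05 for *Tac1* (interval −2.36 to 0.27) to 1.01 for *Adora2a* (−2.42 to 4.43), also with 0 of 9 called (0% of all genes) and 0 at an unadjusted *p* under 0.05 (2.99%). The *Tac1* difference had the lowest unadjusted *p* of all 108 values (limma, 0.111, adjusted *p* = 0.9997). The difference between genotypes in drug response was then tested directly. For IMN, 0 of 9 were called (0.536% of all genes), with 0 at an unadjusted *p* under 0.05 (9.24%) and values from −1.72 (*Drd2*, interval −4.97 to 1.53) to 0.51 (*Pde10a*, −2.27 to 3.28). For FLX, 0 of 9 were called (1.71% of all genes), with 0 at an unadjusted *p* under 0.05 (16.8%) and values from −0.64 (*Drd2*, −3.61 to 2.33) to 0.93 (*Drd1*, −1.54 to 3.41).

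**Figure D2:**
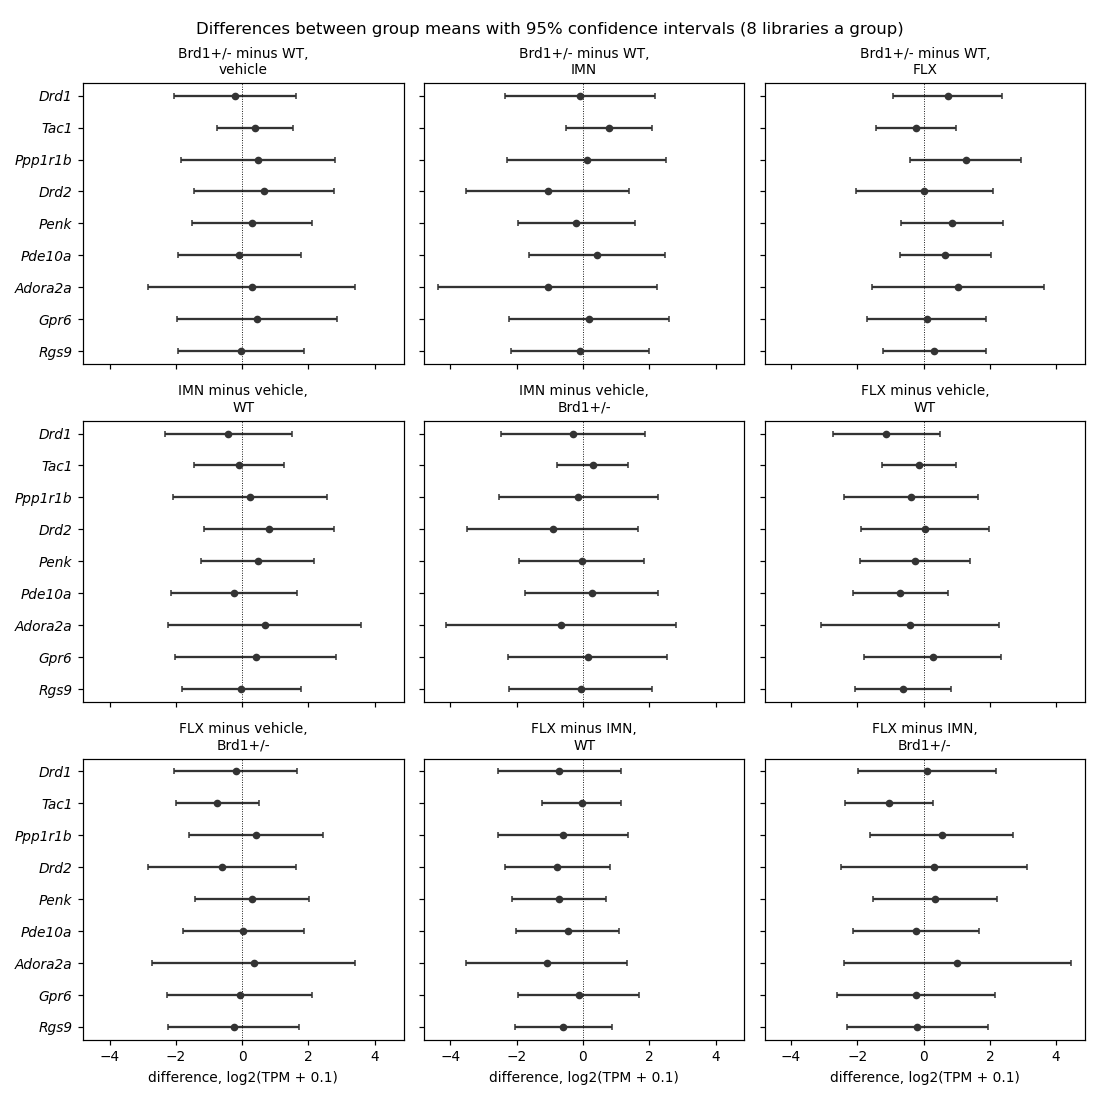
Points are differences between group means of log2(TPM + 0.1) for the 9 genes and bars are 95% confidence intervals from limma, with 8 libraries a group and 1 panel for each of the 9 comparisons between a pair of groups. Every interval spans 0, and the *Adora2a* intervals are the widest.

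The wider sets of pathway genes were read beside the 9. Of 6 further direct pathway genes (*Pdyn*, *Chrm4*, *Isl1*, *Eya1*, *Ebf1*, *Sfxn1*), 2 of 3 listed indirect pathway genes (*Sp9*, *Six3*; the other one was not analysed here) and 18 projection neuron genes of both pathways, 0 were called higher and 0 lower in any of the 12 comparisons (limma, adjusted *p*). At an unadjusted *p* under 0.05 stood 3 of the 6 direct pathway genes for genotype with FLX (16.6% of all genes), 3 for FLX in WT mice (16.8%) and 3 for the difference between genotypes in FLX response (16.8%), and at most 2 in each other comparison. *Chrm4*, a muscarinic receptor, and *Eya1*, a transcription cofactor, were among the 3 in each of these, which share libraries. The lowest adjusted *p* in the 3 comparisons was 0.0938, for *Eya1* with FLX. Of the 18, 3 had an unadjusted *p* under 0.05 for FLX in WT mice (16.8% of all genes), and *Sp9* was the 1 indirect pathway gene that did, for genotype with FLX and for FLX in WT mice. With FLX, 16 of the 18 projection neuron genes were above 0 in Brd1+/- against WT mice, with a median log2 difference of 0.49 against −0.06 over all genes tested, and 2 of 18 had an unadjusted *p* under 0.05, where 16.6% of all genes did. In WT mice all 18 were below 0 for FLX against IMN, with a median of −0.48 against 0.05 over all genes, and 0 had an unadjusted *p* under 0.05 (4.78% of all genes). These 18 genes varied together across libraries, so their shared sign is not 18 separate observations. The other dopamine receptors were low, with means of 1.18 TPM for *Drd3*, 0.0772 TPM for *Drd4*, listed at 0 in 32 of 48 libraries, and 3.17 TPM for *Drd5*. In the comparisons in which they passed the filter on low values, 0 of these 3 were called by limma, and 1 had an unadjusted *p* under 0.05, for genotype over all treatments.

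Across the 48 libraries the levels of the 9 genes varied together. The following correlations are descriptions without *p*-values, since the points share the punched tissue and the scaling of TPM. Over the 36 pairs of genes Pearson's r of log2(TPM + 0.1) had a median of 0.906, from 0.613 for *Ppp1r1b* with *Tac1* to 0.950 for *Rgs9* with *Gpr6*, and Spearman's rho ran from 0.486 to 0.946. With the 2 libraries farthest from the median of the first gene left out, r ran from 0.550 to 0.942. In TPM, where the highest libraries weigh most, r was between 0.916 and 0.994. After the group means were removed, *Drd1* with *Adora2a* still had r = 0.947.

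The direct and indirect pathway genes did not form separate blocks. *Drd1* had r = 0.933 (rho 0.903) with *Adora2a*, 0.914 (0.856) with *Gpr6*, 0.908 (0.913) with *Penk* and 0.839 (0.781) with *Drd2*, all genes of the indirect pathway. With *Tac1*, its partner in the direct pathway, *Drd1* had r = 0.690 (rho 0.604). Pairs within the indirect pathway lay between 0.881 and 0.930. *Tac1* was the gene apart, since its 8 pairs lay between 0.613 and 0.821 and the other 28 between 0.809 and 0.950. Within single groups of 8 libraries the r of *Drd1* with *Adora2a* was 0.923 to 0.995, and that of *Drd1* with *Tac1* was 0.440 to 0.897. The sample codes in the labels were also divided here into 4 ranges, each of vehicle or of drug libraries alone. Within these ranges the same pairs had 0.922 to 0.965 and 0.598 to 0.905.

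**Figure D3:**
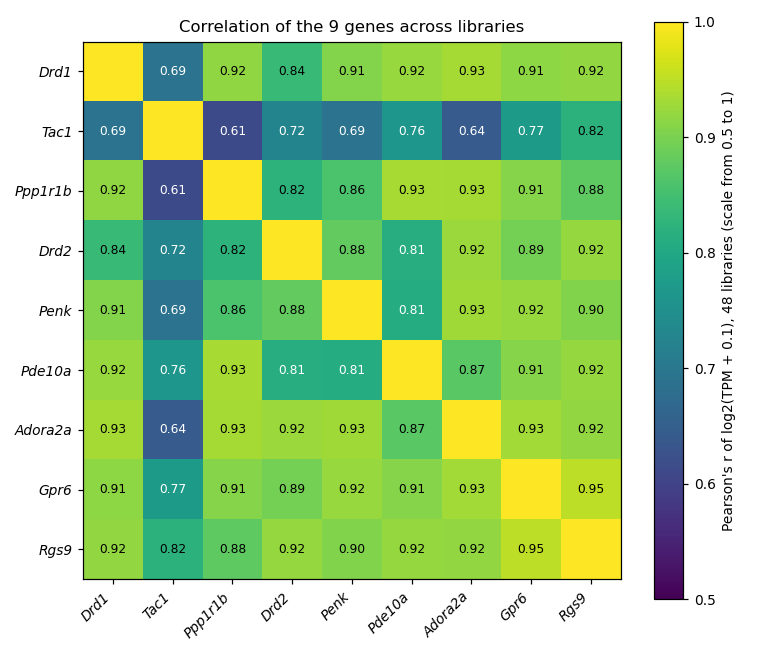
Each cell gives Pearson's r between 2 of the 9 genes over the 48 libraries on the log2(TPM + 0.1) scale, with color from 0.5 to 1. The row of *Tac1* is the darkest, from 0.61 to 0.82, and the remaining cells are between 0.81 and 0.95.

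Single libraries show how the order of the genes shifted. In WT vehicle replicate 3, the highest in *Adora2a*, *Drd1* was at 205, *Drd2* at 305, *Adora2a* at 547, *Penk* at 3245, *Tac1* at 692 and *Ppp1r1b* at 4218 TPM. In Brd1+/- FLX replicate 7, the lowest in *Adora2a*, the same genes were at 4.76, 0.703, 0.5005, 57.9, 49.3 and 112 TPM. *Adora2a* was thus far above *Drd1* in the first library and below it in the second. WT IMN replicate 4 differed from both, with *Drd2* at 19.3 TPM and *Tac1* at 192 TPM where *Drd1* and *Adora2a* were at 1.99 TPM each.

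The ratio of *Drd1* to *Drd2* was spread less among the libraries rich in *Adora2a* than among the poor ones. In the library with the most *Adora2a* of each group, the ratio was between 0.670 and 0.816 over the 6 groups. Other rich libraries lay outside that range. Brd1+/- vehicle replicate 6, with *Adora2a* at 148 TPM, had 1.32, and WT vehicle replicate 1, at 202 TPM, had 1.15. In the library with the least *Adora2a* of each group it was between 0.103 and 8.73, which is also the range over all 48. *Penk* over *Tac1* was 4.69 to 6.29 in the 6 libraries with the most *Adora2a* of their group, 0.702 to 3.05 in the 6 with the least and 0.534 to 20.1 over all 48. By group, the median ratio of *Drd1* to *Drd2* was 1.75 in WT vehicle and 0.857 in Brd1+/- vehicle mice, 0.805 and 1.08 with IMN, and 0.771 and 0.943 with FLX. The ranges of this ratio overlapped between all groups, and it was not tested.

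**Figure D4:**
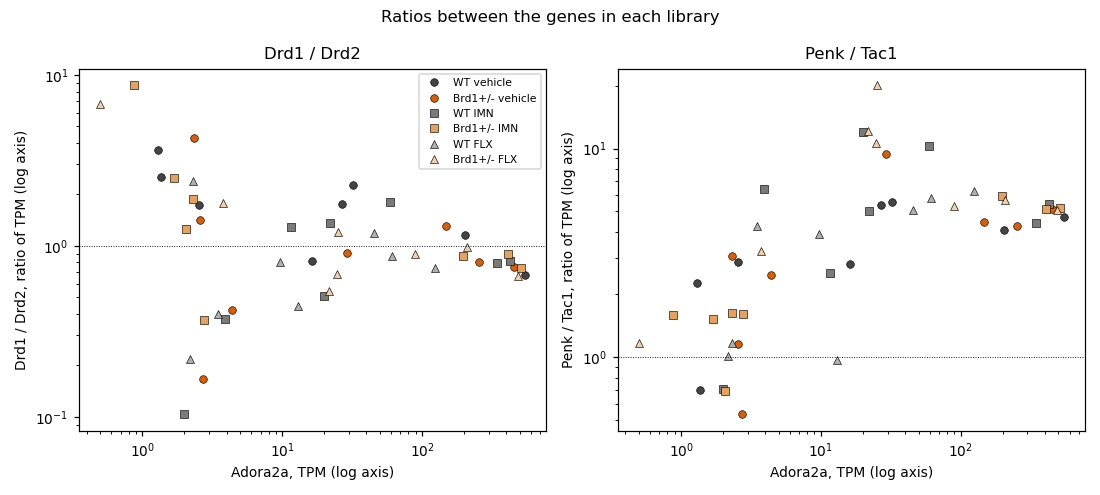
Each point is 1 library, with its *Adora2a* TPM on the horizontal log axis and the ratio of TPM of *Drd1* to *Drd2* (left) or of *Penk* to *Tac1* (right) on the vertical log axis; the dotted line marks a ratio of 1. At the right of both panels the ratios draw together. In the top library of each group they are 0.670 to 0.816 and 4.69 to 6.29, and other libraries at the right lie outside these ranges. At the left *Drd1* over *Drd2* spans 0.103 to 8.73.

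**Figure D5:**
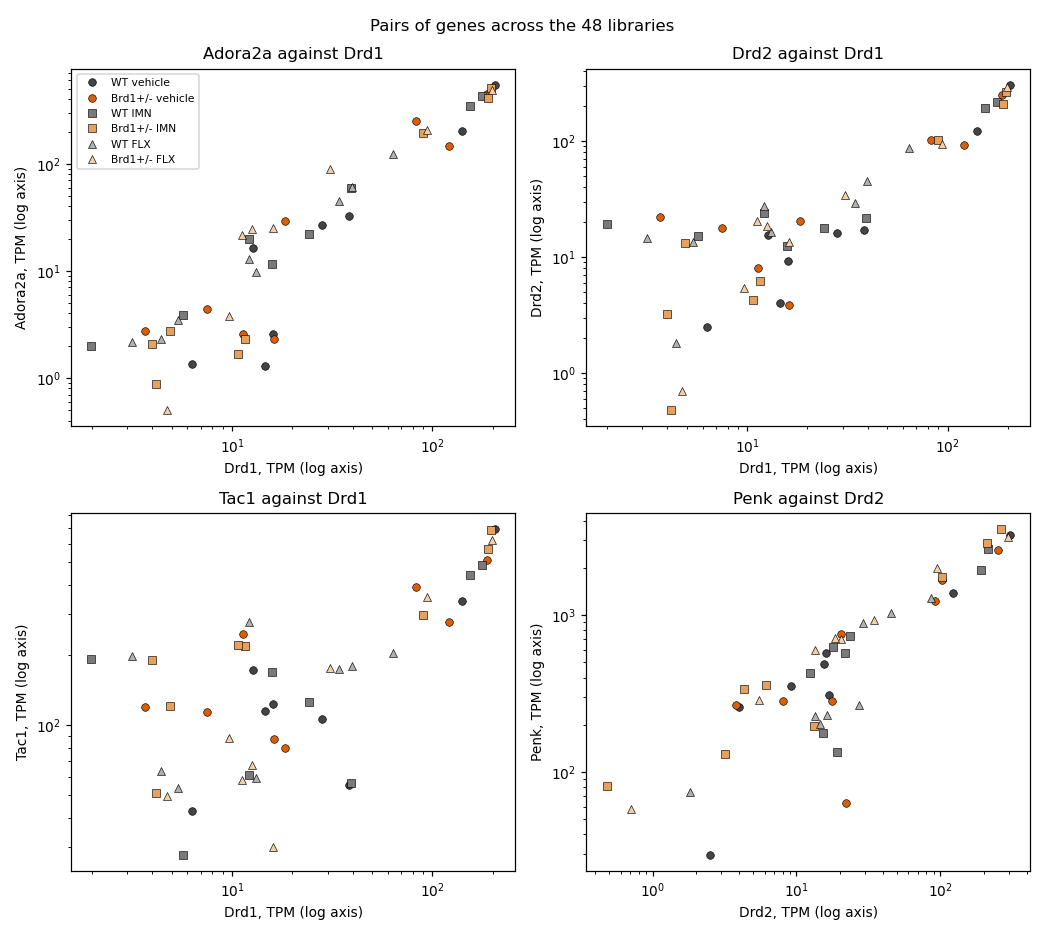
Each point is 1 library, with TPM of a pair of genes on log axes. *Adora2a* follows *Drd1* closely (r = 0.933). At low *Drd1*, some libraries hold *Drd2* near 20 TPM and others lie far lower, down to 0.478 TPM. *Tac1* is loosely tied to *Drd1* at low levels (r = 0.690), and *Penk* follows *Drd2* (r = 0.881).

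By the rule that named the genes most alike in pattern, deviations from group means on the log2 scale were correlated with those of 13814 other protein-coding genes with a mean of at least 1 TPM over the 48 libraries. *Drd1* was closest to *Rem2* (r = 0.965) and *Drd2* to *Syndig1l* (0.952) and *Ido1* (0.940). For *Gpr6* the first was *Pde7b* (0.968). *Ppp1r1b* was closest to *Sh3rf2* (0.986), *Pde10a* to *Pde1b* (0.988) and *Rgs9* to *Adcy5* (0.961). *Tac1* had the loosest neighbours, led by *Rasd2* (0.859).

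Markers of other cell types moved with or against these genes across libraries. For the log2 of the summed TPM of the 18 projection neuron genes, r with the 9 genes was 0.759 to 0.986. It was −0.646 to −0.443 for 4 astrocyte markers, −0.747 to −0.308 for 6 markers of hypothalamus and thalamus, −0.686 to −0.318 for 7 markers of the central AMG, −0.657 to −0.448 for 3 markers of the pallidum and −0.497 to −0.218 for 7 markers of basolateral AMG and cortex. The central AMG sum was mostly *Sst*, the somatostatin precursor, with a mean of 779 TPM. *Prkcd* alone had r of −0.14 with *Drd1*, 0.0335 with *Drd2*, 0.0687 with *Adora2a* and 0.00132 with *Ppp1r1b*, so the negative relation of the sum was not seen for it. *Prkcd* was the exception in its list. The r of *Crh*, *Tac2*, *Nts*, *Sst*, *Calcrl* and *Cartpt* with these same genes was below 0 throughout. It ran from −0.729 (*Cartpt* with *Ppp1r1b*) to −0.0937 (*Nts* with *Drd2*). The r of the sum was above 0 with all 9 genes for 4 striatal interneuron markers (0.144 to 0.566). The same was true for 3 markers of the intercalated cells of the AMG (0.105 to 0.481), whose sum had r = 0.285 (rho 0.0799) with *Drd2*. The interneuron sum was mostly *Npy*, with a mean of 149 TPM against 12.8 TPM for *Chat*. With *Drd2*, *Npy* had r = 0.117 and *Chat* 0.667, and with *Drd1* they had 0.549 and 0.398. Markers of oligodendrocytes (−0.183 to 0.180), endothelium (−0.122 to 0.167) and choroid plexus (−0.251 to 0.0439) followed the 9 genes little. The 7 central AMG markers summed to 315 to 1647 TPM in WT vehicle, 418 to 1788 in Brd1+/- vehicle, 597 to 1934 in WT IMN, 495 to 1683 in Brd1+/- IMN, 463 to 1249.8 in WT FLX and 416 to 1837 in Brd1+/- FLX mice. The 6 hypothalamus and thalamus markers had a median of 119 TPM in WT FLX mice (49.7 to 219) and of 32.9 TPM in Brd1+/- FLX mice (21.9 to 57.9), the pair of groups in which *Ppp1r1b* differed most. The part of these markers in the differences was not tested.

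*Drd2* was examined beside markers of dopamine neurons, which also carry it. In Brd1+/- vehicle replicate 7 the dopamine transporter *Slc6a3* was at 149 TPM and *Th*, the rate-limiting enzyme of dopamine synthesis, at 101 TPM, with *Drd2* at 22.3 TPM, *Drd1* at 3.69 TPM and *Adora2a* at 2.74 TPM. In every other library *Slc6a3* reached at most 4.30 TPM, while *Th* reached 35.9 TPM in WT FLX replicate 3. Across the 48 libraries *Drd2* had r = 0.369 with *Th*, −0.248 with *Slc6a3*, −0.0860 with *Slc18a2* and −0.190 with *Ddc*, the other 2 markers listed. Without Brd1+/- vehicle replicate 7 the *Drd1* difference between genotypes with vehicle was 0.18 in place of −0.21, and 0 of 9 genes were called.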

How the data were processed

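RNA sequencing of amygdala punches from 48 mice was analysed as deposited by the authors. Per the methods and labels, libraries were made with a TruSeq kit and sequenced as single-end reads on an Illumina HiSeq2000, reads were aligned to GRCm38 with HISAT2 2.1.0 and genes were quantified with StringTie 1.3.4. The authors deposited TPM for each library, a length-scaled share that keeps no depth, so that read numbers are unknown, no counting interval was computed and a rise in some genes lowers the share of others. Whether strand was used in counting is not given in the sources used here. The series' design text names other brain regions, and the sample labels were followed.

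Groups and replicate numbers came from the labels. Gene IDs were matched to symbols and to GENCODE M21 on GRCm38 (99.7% of IDs found). The log2(TPM + 0.1) scale was used, on which folds of low genes are understated. Genes with at least 0.1 TPM in at least 8 libraries of a fit were tested with limma 3.58.1 (R 4.3.3, trended eBayes) on the groups compared, two-sided, without covariates, in place of the authors' count test. Benjamini-Hochberg adjusted p-values over all genes tested under 0.05 were called. In each comparison the text names the members with the lowest and highest difference, and for 7 members the genes with the highest r, and 1 gene is not reported here. The members and gene lists were chosen with earlier results of these data known, and 1 of the 3 further indirect pathway genes listed was not matched. P-values measure the spread between mice with 1 punch and 1 library each, so spread between mice, punches and libraries cannot be told apart. The code was tested on simulated data. Alternatives covered the pseudocount, the filter, scaling, protein-coding genes alone, a joint fit of all libraries, a block for replicate numbers, the range of the sample codes and leaving out each library.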

Additional observations from a re-analysis of the deposited data

Results flagged for a closer look

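The highest library stood apart from the others of its group in 18 of 54 combinations of gene and group in TPM. The criterion is met by chance in about 1 of 20 groups only where values are normally distributed. TPM of these genes were skewed, as for *Adora2a* with a mean of 101 and a median of 20.8 TPM, so that rate does not apply to the 18. On the log2 scale of the tests a library stood apart in 0 of 54. The 18 came from 4 libraries, 1 each of 4 groups, and since the 9 genes vary together they are not separate events.

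In WT vehicle replicate 3, *Ppp1r1b* was at 4218 TPM (next library 1966), *Drd2* at 305 (121.8), *Penk* at 3245 (1384), *Adora2a* at 547 (202) and *Tac1* at 692 (342). In Brd1+/- vehicle replicate 1, *Ppp1r1b* was at 3655 TPM (1394), *Drd2* at 249.9 (103), *Pde10a* at 637 (249), *Rgs9* at 685 (289) and *Gpr6* at 90.5 (38.6). Brd1+/- FLX replicate 2 had the highest levels of that group by the same criterion for 7 genes, with *Ppp1r1b* at 3834 TPM (1292), *Drd1* at 197 (94.2), *Drd2* at 294 (95.02), *Adora2a* at 484 (209), *Pde10a* at 837 (214), *Rgs9* at 735 (239) and *Gpr6* at 114 (34.6). In WT FLX replicate 4 only *Pde10a* met it, at 159 TPM (76.4). Of the differences named, leaving out Brd1+/- FLX replicate 2 turned *Ppp1r1b* for FLX in Brd1+/- mice from 0.41 to −0.05, leaving out WT FLX replicate 4 turned *Gpr6* for FLX in WT mice from 0.27 to −0.02, and leaving out WT vehicle replicate 3 turned *Drd1* for genotype with vehicle from −0.21 to 0.18 and *Drd2* for genotype over all treatments from −0.13 to 0.04. With each of the 4 left out, 0 of 9 genes were called.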

How the results depend on the processing

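Of the 9 genes, 0 were called in any of the 12 comparisons under pseudocounts of 0.01 and 1, no filter, a filter at 1 TPM in 8 libraries, median-ratio scaling, protein-coding genes alone, the replicate block, or with any library left out. In 1 fit of all 48 libraries, run for 11 comparisons, 0 were called. The sample code ranges as a term were run for 5 comparisons alone, also with 0 called. These 5 were genotype within each treatment and FLX against IMN within each genotype. Vehicle and drug libraries shared no range, so the term could not be separated from drug against vehicle. The lowest adjusted *p* among these 3204 limma values was 0.287. Leaving out a library turned the direction of 309 of 2304 differences, all with a size of at most 0.64 on the log2 scale before, and the other alternatives turned that of 4. Among the differences named, those that turned when a library was left out ranged from −0.62 to 0.18 (*Drd1*, genotype with vehicle), from −0.59 to 0.0332 (*Tac1*, genotype with FLX), from −0.84 to 0.0721 (*Drd1*, IMN in WT), from −0.29 to 0.89 (*Gpr6*, FLX in WT), from −0.0482 to 0.91 (*Ppp1r1b*, FLX in Brd1+/-), from −0.35 to 0.24 (*Tac1*, FLX against IMN in WT), from −1.21 to 0.0197 (*Drd2*, genotype by FLX) and from −0.31 to 0.11 (*Drd2*, genotype over all treatments). The term for sample codes turned *Tac1*, genotype with FLX, to 0.0715. Causes were not tested.

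Replicate numbers are labels only. Same-numbered libraries of different groups deviated from their group means with a median r of −0.0243 (120 pairs, −0.292 to 0.519), against −0.00872 for other numbers. With the replicate block, 0 genes were called in each comparison, and the lowest unadjusted *p* was 0.0144 (*Tac1*, genotype with IMN, 0.78, limma adjusted *p* = 0.972). Depth is unknown from TPM, and the spread between libraries of a group limits which differences could be detected.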
